A study of Homo sapiens with 4 samples.

Results

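The cytosolic ribosomal proteins are described here through 77 of the 17791 gene rows of a table of RNA sequencing counts. They were taken by symbol: RPL or RPS followed by a number with an optional A or X, the P-stalk genes RPLP0, RPLP1 and RPLP2, and RPSA, leaving out rows on the Y chromosome. Of these, 43 encode proteins of the large ribosomal subunit, 31 encode proteins of the small subunit and 3 encode the stalk. Levels are in CPM, counts per 1000000 of a library size adjusted with edgeR's TMM factors, which assume that most genes do not differ. All 77 were among the 14856 genes with at least 1 CPM in some library, and the lowest count of any of them in a library was 161.

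Ribosomal proteins and ribosomal RNA together make up the ribosome, whose small subunit decodes the mRNA and whose large subunit joins amino acids into a protein. Their mRNAs are among the most abundant of a dividing cell, and nearly all of them begin with a terminal oligopyrimidine tract (TOP), a C followed by a run of C and T, through which the growth kinase mTORC1 controls their translation. Ribosome synthesis is often raised in tumour cells, and it starts in the nucleolus, where RNA polymerase I makes the ribosomal RNA.

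The 4 libraries came from engineered prostate cancer tissues, called EPCaTs, and from a flat coculture. The PF EPCaT held PC-3 cells, a prostate cancer line, and BJ-5ta cells, fibroblasts immortalised with telomerase, in a gel of poly(ethylene glycol) and fibrinogen (PF), seeded with 5 PC-3 cells for 1 BJ-5ta cell and kept until day 15. The EPCaTs named PF+2%PEGDA and PF+3%PEGDA, called 2% PEGDA and 3% PEGDA below, held the same cells in a PF gel with excess poly(ethylene glycol) diacrylate (PEGDA) at 2% or 3%, to change its mechanical properties. The 2D coculture held both lines grown flat, and its cell ratio and day of harvest were not given in the sources used here. All EPCaTs were kept in the medium of the PC-3 cells. No group carried another treatment, each line is a single established line, and RNA for an EPCaT library came from more than 2 tissues.

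There was 1 library per group, so no difference below has a replicate check and no p-value is given. Intervals are exact 95% intervals that cover counting error only. Total counts were between 13760301 and 15687894 per library, and a single count was worth 0.0599 to 0.0731 CPM. A gene is called higher or lower when its level differed at least 2-fold and the interval of its log2 ratio excluded 0. Epithelial and fibroblast markers were both detected in every library, and their levels are given below.

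Of the 77 genes, 62 had a transcription start in the RefSeq promoter table of GRCh38.p14. A TOP was searched on the transcribed strand only, as a C followed by at least 4 bases that were each C or T, with that C within 5 bases of a start. It was present for 53 of the 62 (85.5%), and for 6886 of all 27305 genes of the table (25.2%). The genes with no match were RPL15, RPL17, RPL27, RPL6, RPL9, RPS15, RPS26, RPS29 and RPS4X, and those without an entry included RPL23, RPL23A, RPL30, RPL37, RPL5, RPL7, RPL8, RPS15A, RPS2 and RPS20. The windows of 30 bases below run from 10 bases before the annotated start, 5′ to 3′, with the pyrimidine run in capitals. They belong to the 4 genes with an entry whose level in the PF EPCaT was lowest relative to 2D and the 4 for which it was least reduced. Where a gene had several starts, the start with the longest run is printed, so the windows do not show how common such runs are.
RPL36A (chrX:101391001-101391030, plus strand): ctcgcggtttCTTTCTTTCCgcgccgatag
RPS27 (chr1:153990752-153990781, plus strand): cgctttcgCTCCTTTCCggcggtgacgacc
RPL39 (chrX:119791611-119791640, minus strand): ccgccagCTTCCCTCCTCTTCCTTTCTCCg
RPL26 (chr17:8383174-8383203, minus strand): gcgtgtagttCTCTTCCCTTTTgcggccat
RPL22 (chr1:6199576-6199605, minus strand): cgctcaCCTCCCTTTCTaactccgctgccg
RPL35A (chr3:197950180-197950209, plus strand): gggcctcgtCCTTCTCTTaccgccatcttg
RPL11 (chr1:23691796-23691825, plus strand): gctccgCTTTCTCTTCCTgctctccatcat
RPS3A (chr4:151099618-151099647, plus strand): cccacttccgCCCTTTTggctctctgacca

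Ribosomal protein mRNA took a smaller share of the PF EPCaT library than of the other 3. The 77 genes held 2.20% of all counts in the PF EPCaT, 4.06% with 2% PEGDA and 3.84% with 3% PEGDA, against 4.42% in the 2D coculture. Each share had an exact binomial interval of about 0.01 percentage points to either side, for counting error alone. The large subunit genes held 1.24%, 2.24% and 2.09% in PF, with 2% PEGDA and with 3% PEGDA, against 2.42% in 2D. The small subunit genes held 0.816%, 1.55% and 1.49% in the same EPCaTs, against 1.69% in 2D. The 3 stalk genes held 0.139%, 0.273% and 0.265%, against 0.312% in 2D. So the libraries had the same order for both subunits and for the stalk, with PF lowest and 2D highest. In bulk RNA, fewer cells of a type and less RNA per cell cannot be told apart.

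**Figure D1:**
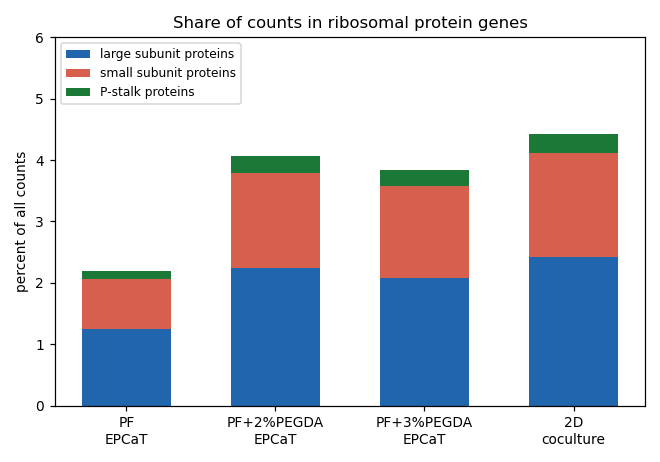
Percent of all counts in ribosomal protein genes (y axis, from 0) in each of the 4 libraries (x axis), stacked by large subunit, small subunit and P-stalk proteins. The PF EPCaT bar reaches 2.20%, and the other 3 reach 3.84% to 4.42%.

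Gene by gene, the PF EPCaT had the lowest level for 76 of the 77. The exception was RPS26, which sits where the mRNA leaves the small subunit and was lowest in the 2% PEGDA EPCaT. The 2D coculture was highest for 59 genes, and each of the PEGDA gels was highest for 9. The genes that were highest in a PEGDA gel included RPL39, RPL41, RPS27 and RPS20 for 2% PEGDA and RPL23, RPL7, RPS21 and RPS3A for 3% PEGDA.

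**Figure D2:**
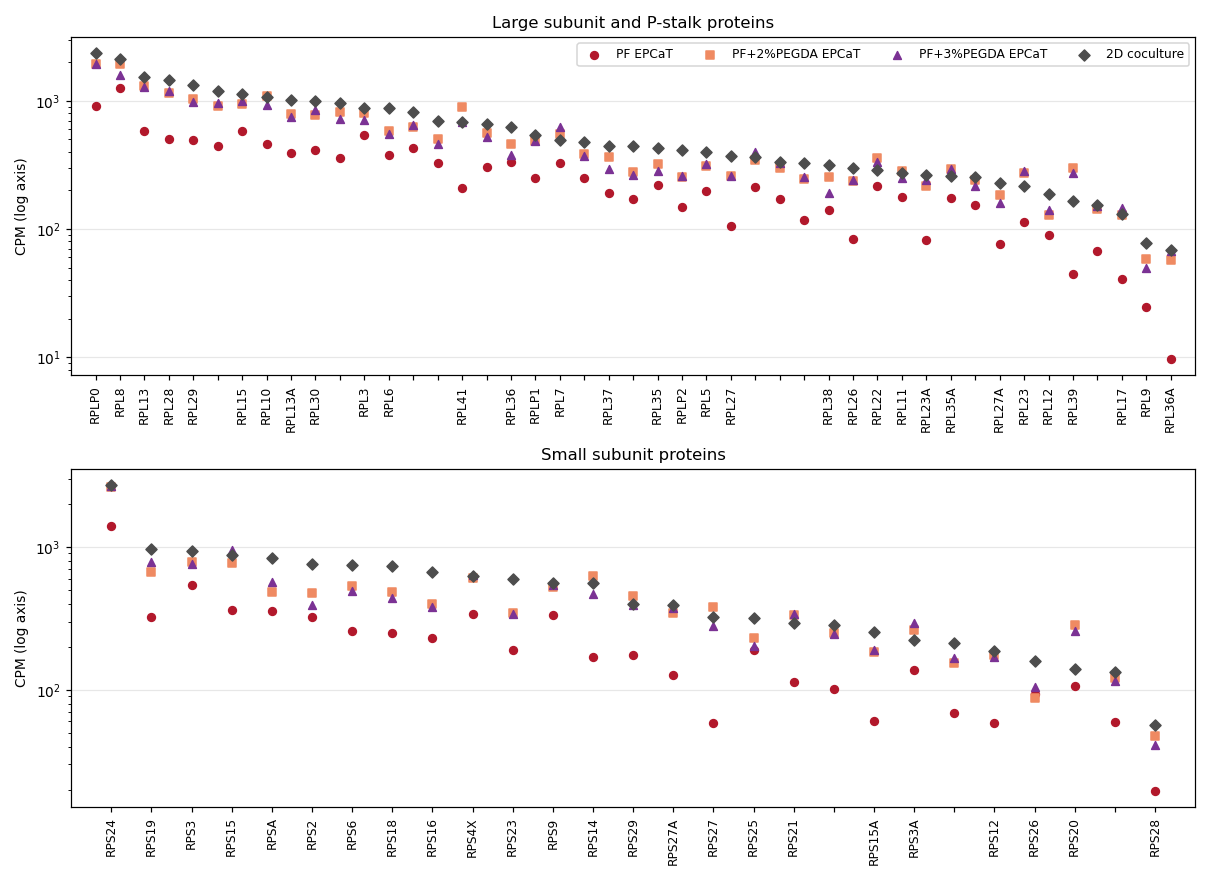
Level of 72 of the ribosomal protein genes in CPM (log axis) in PF, with 2% PEGDA and with 3% PEGDA and the 2D coculture, with genes on the x axis in order of their 2D level and labels for those named in the text. The PF EPCaT points lie lowest for 71 of these 72 genes, while those of the PEGDA gels lie near those of 2D.

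The PF EPCaT against the 2D coculture addressed how growth in the unmodified gel compared with flat growth. The median log2 ratio of the 77 genes was -1.27, a level 2.42-fold lower, against 0.01 over all 14856 genes. Every gene had a ratio below 0, and 54 were called lower and none higher. Of all genes tested, 12.3% were called lower and 16.2% higher. Past 1.5-fold there were 74 lower genes, against 22.6% of all genes. The medians were -1.21 for the large subunit, -1.37 for the small subunit and -1.39 for the stalk, and single genes had an SD of 0.44 over the 77. Whether the subunits differed was not tested.

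The stalk of the large subunit recruits the elongation factors. RPLP0, which anchors it to the ribosome, was at 909 CPM in the PF EPCaT, 1950.4 CPM with 2% PEGDA and 1927 CPM with 3% PEGDA, against 2379.6 CPM in the 2D coculture. RPLP1, its first acidic partner, was at 252 CPM in PF, 489 with 2% PEGDA and 482 with 3% PEGDA, against 546 CPM in 2D, and RPLP2, the second, was at 148 CPM in PF, 257 with 2% PEGDA and 260.2 with 3% PEGDA, against 413 CPM in 2D. All 3 were lowest in PF and highest in 2D, and their log2 ratios for PF against 2D were -1.39, -1.12 and -1.48. RPL12, at the base of the stalk, had 90.4 CPM in PF, 128 with 2% PEGDA and 140.4 with 3% PEGDA, against 186 CPM in 2D. Its log2 ratio was -1.04 for PF, so all 4 genes of the stalk and its base were called lower, beside 54 of all 77 genes. With a trend of coding length and GC content removed, as described below, RPLP0 had -1.21. RPLP1, RPLP2 and RPL12 then had -0.67, -0.96 and -0.67, less than 2-fold. Whether structural groups differed from the other members was not tested.

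RPL5 and RPL11 join the 5S ribosomal RNA in a particle that can also bind the p53 inhibitor MDM2. RPL5 was at 199 CPM in PF, 308 with 2% PEGDA and 320.3 with 3% PEGDA, against 400.0 CPM in 2D. RPL11 was at 179 CPM in PF, 283 with 2% PEGDA and 249 with 3% PEGDA, against 272 CPM in 2D. RPL5 was called lower in PF, with a log2 ratio of -1.01 (95% interval -1.07 to -0.95), while RPL11, at -0.60 (95% interval -0.67 to -0.53), was not. Close to the catalytic centre, RPL3 had a log2 ratio of -0.70, RPL8 one of -0.75 and RPL10, which joins late in assembly, one of -1.23, and only RPL10 was called.

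For PF against 2D, the widest range of a structural group lay along the tunnel through which the new protein leaves the large subunit. RPL39, a small protein of the tunnel wall, was at 44.9 CPM in the PF EPCaT, 299 CPM with 2% PEGDA and 276 CPM with 3% PEGDA, against 164 CPM in the 2D coculture. RPL17, which also lines the tunnel, was at 40.6 CPM in PF, 129 with 2% PEGDA and 146 with 3% PEGDA, against 132 CPM in 2D. RPL22, near the tunnel's opening, was at 218 CPM in PF, 356 with 2% PEGDA and 333 with 3% PEGDA, against 289.9 CPM in 2D. For PF against 2D these were log2 ratios of -1.87, -1.69 and -0.41, and RPL22 was the large subunit gene with the smallest difference. RPL26, at the same opening, had a log2 ratio of -1.84 (95% interval -1.93 to -1.76). Over the 9 genes of the tunnel and its opening the median was -1.11, and 5 were called lower, beside 54 of all 77 genes.

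Other large subunit genes stood at the ends of the range. RPL36A had the lowest ratio of all 77, with 9.65 CPM in the PF EPCaT, 57.8 CPM with 2% PEGDA and 68.02 CPM with 3% PEGDA, against 68.7 CPM in the 2D coculture, a log2 ratio of -2.83 (95% interval -3.08 to -2.59). Its coding sequence occurs in other genes, as described below, so this value is uncertain. RPL41, the shortest ribosomal protein, was at 209 CPM in PF, 889 with 2% PEGDA and 683 with 3% PEGDA, against 684 CPM in 2D, with a log2 ratio of -1.71. RPL27 had -1.79. RPL35A and RPL7 had log2 ratios of -0.58 and -0.59 and were not called, and RPL13A, which can leave the ribosome to silence inflammatory mRNAs, had -1.36 and was called.

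In the small subunit, the 3 genes around the decoding centre were all called lower in PF, beside 54 of all 77 genes. With the trend of coding length and GC content removed, RPS18 and RPS23 had -1.16 and -1.28, and RPS15 had -0.83, less than 2-fold. RPS15 was at 359 CPM in PF, 766 with 2% PEGDA and 946 with 3% PEGDA, against 872 CPM in 2D. RPS18 was at 249 CPM in PF, 479 with 2% PEGDA and 436 with 3% PEGDA, against 733 CPM in 2D, and RPS23, a universally conserved protein of the centre, was at 191 CPM in PF, 347 with 2% PEGDA and 339 with 3% PEGDA, against 596 CPM in 2D. RPS15 stood at about the 2D level in the PEGDA gels, while RPS18 and RPS23 were below it in all 3 EPCaTs. At the mRNA entry, RPS2, RPS3 and RPS9 had log2 ratios of -1.24, -0.79 and -0.76, of which RPS2 was called. At the mRNA exit, RPS14 and RPS28 were called lower, with -1.70 and -1.55, and RPS26, at -0.76, was not.

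Among 7 proteins of the small subunit head, 6 were called lower, beside 54 of all 77 genes. RPS20 was the exception, and at a log2 ratio of -0.40 (95% interval -0.49 to -0.30) it had the smallest difference of all 77 genes. It was at 107 CPM in the PF EPCaT, 284 CPM with 2% PEGDA and 255.8 CPM with 3% PEGDA, against 140.4 CPM in the 2D coculture. RPS19, the protein most often mutated in Diamond-Blackfan anaemia, was at 325 CPM in PF, 664 with 2% PEGDA and 777 with 3% PEGDA, against 959 CPM in 2D, with a log2 ratio of -1.56. RPS16 was at 229 CPM in PF, 395 with 2% PEGDA and 377 with 3% PEGDA, against 670.0 CPM in 2D, with a log2 ratio of -1.55, and was below 2D in every EPCaT.

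RPS27 had the lowest ratio of the small subunit and RPS15A the next. RPS27, a zinc-binding protein, was at 58.4 CPM in the PF EPCaT, 379 CPM with 2% PEGDA and 279 CPM with 3% PEGDA, against 320.4 CPM in the 2D coculture, a log2 ratio of -2.45 (95% interval -2.56 to -2.36). RPS15A was at 60.5 CPM in PF, 185 with 2% PEGDA and 189 with 3% PEGDA, against 254 CPM in 2D, a log2 ratio of -2.07 (95% interval -2.17 to -1.97). Both were far lower in PF than in any other library. RPS6, the substrate of S6 kinase, was at 258 CPM in PF, 529 with 2% PEGDA and 489 with 3% PEGDA, against 747 CPM in 2D, with a log2 ratio of -1.53. RPS27A, made as a fusion with ubiquitin, had -1.62, RPSA, which also serves as a laminin receptor, had -1.24, and RPS4X, encoded on the X chromosome, had -0.88 and was not called.

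The differences of the PEGDA gels from the 2D coculture were smaller. For 2% PEGDA against 2D, the median log2 ratio was -0.28, with 63 genes below 0 and 14 above. Only RPS20 was called higher (12.3% of all genes tested were), with a log2 ratio of 1.02 (95% interval 0.94 to 1.09), and no gene was called lower, against 9.65% of all genes. Past 1.5-fold there were 2 higher genes, against 20.3% of all genes, and 10 lower, against 18.7%. For 3% PEGDA against 2D, the median was -0.31, with 65 genes below 0 and 12 above. No gene was called, against 11.8% of all genes called higher and 10.7% called lower, and past 1.5-fold there were 2 higher and 18 lower genes, against 20.1% of all genes in either direction. The counts of lower genes past 1.5-fold depend on the scaling, with 5 in 2% PEGDA and 8 in 3% PEGDA by total counts, and 6 and 10 with the trend of transcript length and GC removed. Apart from the 18 lower genes past 1.5-fold in 3% PEGDA, these shares of the members were below those of all genes.

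The highest ratios of the PEGDA gels against 2D, and the only ones past 1.5-fold upward, were those of RPS20 and RPL39, with 1.02 and 0.86 in 2% PEGDA and 0.87 and 0.75 in 3% PEGDA on the log2 scale. RPL23 was at 114 CPM in PF, 275 with 2% PEGDA and 285 with 3% PEGDA, against 217 CPM in 2D. RPS3A was at 138 CPM in PF, 261 with 2% PEGDA and 292 with 3% PEGDA, against 223 CPM in 2D. At the other end, RPS26 had the lowest ratio in 2% PEGDA, -0.85 (95% interval -0.95 to -0.75), and RPS2 in 3% PEGDA, -0.96 (95% interval -1.01 to -0.92). RPS26 was at 93.3 CPM in the PF EPCaT, 87.8 CPM with 2% PEGDA and 105 CPM with 3% PEGDA, against 158 CPM in the 2D coculture, so it stood below 2D by about as much in each EPCaT. The 3 comparisons against 2D share that library, so their values are given side by side only.

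**Figure D3:**
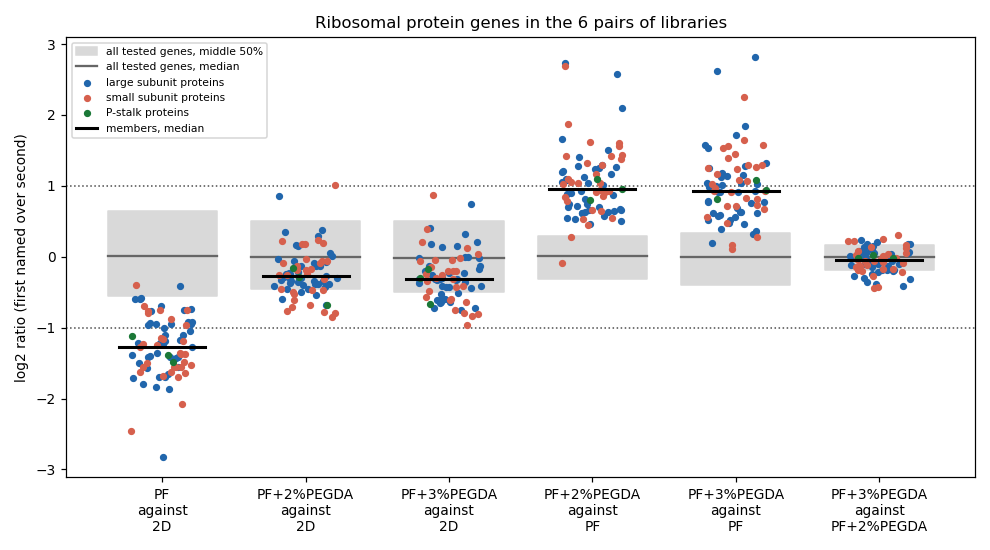
Log2 ratio of each ribosomal protein gene (points, coloured by subunit) in the 6 pairs of libraries, the first named over the second, with dotted lines at 2-fold. The medians (thick lines) are -1.27 for PF, -0.28 for 2% PEGDA and -0.31 for 3% PEGDA against 2D, 0.96 and 0.93 for the 2 PEGDA gels against PF, and -0.05 between the PEGDA gels, while grey bands show the middle 50% of all tested genes.

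Between EPCaTs, which shared cells, ratio and day, the PEGDA gels had more ribosomal protein mRNA than the PF gel. For 2% PEGDA against PF, the median log2 ratio was 0.96, a 1.94-fold higher level, against 0.00 over all genes, and 76 of 77 genes were above 0. Of the members, 38 were called higher and none lower, where 2.98% of all genes tested were called higher and 5.47% lower, and 67 were higher past 1.5-fold, against 8.53%. For 3% PEGDA against PF, the median was 0.93, a 1.90-fold higher level, with all 77 above 0. Here 35 were called higher and none lower, where 3.62% of all genes tested were called higher and 7.49% lower, and 62 were higher past 1.5-fold, against 10.7%. Both comparisons share the PF library, so their values are set side by side only.

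The largest ratios against PF were those of RPL39, RPL36A and RPS27, which encode small proteins. RPL39 had log2 ratios of 2.73 (95% interval 2.62 to 2.85) in 2% PEGDA and 2.62 (95% interval 2.50 to 2.73) in 3% PEGDA. For RPL36A they were 2.58 and 2.81, and for RPS27 2.70 and 2.25. RPL41 had 2.09 and 1.71, and RPS14 1.87 and 1.45, in the same order of gels. Of the small subunit head, 5 of 7 genes were called higher in each gel, beside 38 and 35 of all 77 genes. Among them was RPS12, with 1.60 and 1.54. Of the stalk, RPLP0 alone was called, with 1.10 and 1.08.

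Some genes differed little from PF. RPS25 was at 189 CPM in the PF EPCaT, 229 CPM with 2% PEGDA and 204 CPM with 3% PEGDA, against 317 CPM in the 2D coculture, so all 3 EPCaTs were close to each other and below 2D. Its log2 ratio was 0.28 in 2% PEGDA and 0.11 in 3% PEGDA against PF. RPL36 had 0.47 and 0.19, RPS2 0.55 and 0.27, and RPL35, at the tunnel's opening, 0.53 and 0.36. RPS26 was the single gene below 0, with -0.09 (95% interval -0.19 to 0.02) in 2% PEGDA, an interval that includes 0, and it had 0.17 (95% interval 0.06 to 0.27) in 3% PEGDA.

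The 2 PEGDA gels differed little from each other. For 3% PEGDA against 2% PEGDA the median log2 ratio was -0.05 with an SD of 0.17 over the 77 genes, and no gene was called higher or lower, against 1.85% and 2.42% of all genes. None passed 1.5-fold either, against 3.51% higher and 4.96% lower. The lowest were RPS27, at -0.44 (95% interval -0.50 to -0.38), RPS14, at -0.42, and RPL38, at -0.41, and the highest were RPS15, at 0.30 (95% interval 0.27 to 0.34), and RPS26, at 0.25. With 1 library of each gel, how far replicate tissues would differ is not known.

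Coding length moved with the ratios. Ribosomal proteins are short, with a median coding length of 456 nucleotides against 1407 over all tested genes. Among the other tested genes, the median log2 ratio for PF against 2D was -0.39 at up to 300 nucleotides, -0.44 from 301 to 450, -0.32 from 451 to 600 and 0.38 above 3000. Ribosomal protein genes of the same 3 short classes had medians of -1.42, -1.28 and -1.48, over 9, 27 and 19 genes. For 3% PEGDA against PF the other genes had 0.45, 0.39 and 0.30 in these classes and the ribosomal protein genes 1.17, 1.04 and 0.98. Within the 77, the log2 ratio for PF against 2D had a Spearman rho of 0.26 with coding length, as a description over genes that share their libraries. After removal of the trend with coding length and GC content over all genes, the median for PF against 2D was -0.96 with 36 genes called lower. The same step left medians of 0.74 for 2% PEGDA and 0.64 for 3% PEGDA against PF, with 17 and 15 genes called higher in place of 38 and 35. The shares of all genes given above were taken before this step, so they are no background for these counts. What the trend has to do with the tissues, the RNA or the libraries was not tested.

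**Figure D4:**
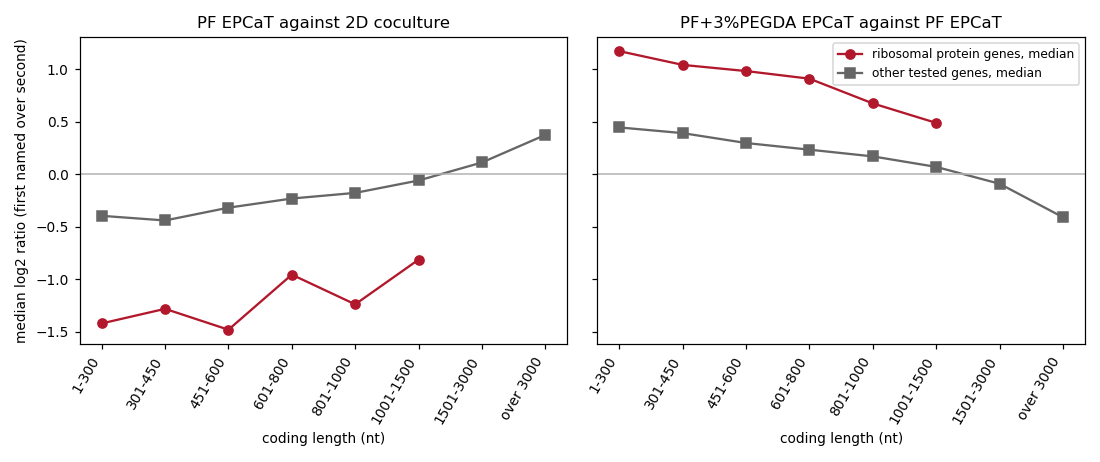
Median log2 ratio (y axis) of ribosomal protein genes and of other tested genes in classes of coding length in nucleotides (x axis), for PF against 2D (left) and 3% PEGDA against PF (right). Other genes have -0.39 in the shortest and 0.38 in the longest class on the left, and 0.45 and -0.41 on the right, and the ribosomal protein medians lie below them on the left and above them on the right in each class that holds both, with 5 and 2 ribosomal protein genes in the longest such classes.

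Levels of different genes can be compared only per length. Per kilobase of annotated transcript, averaged over the 4 libraries, RPS24 was highest with 3694 CPM, followed by RPL8 with 1793 CPM, RPL29 with 1734 CPM, RPL13 with 1651 CPM and RPLP0 with 1471 CPM. The lowest were RPS28 with 31.1 CPM, RPL27A with 33.0 CPM, RPL37 with 42.1 CPM, RPL9 with 70.0 CPM and RPS23 with 107 CPM. The annotation gives RPL37, RPL27A and RPS23 main transcripts of 7686, 4916 and 3437 nucleotides for coding sequences of 291, 444 and 429, so the length that was sequenced is uncertain for them. Per kilobase of coding sequence, a measure added for that reason, RPL41 was highest with 8218 CPM, which overstates a coding sequence of 75 nucleotides, ahead of RPS24 with 5870 CPM and RPL28 with 2620 CPM. On that scale RPL9 was lowest with 91.2 CPM, followed by RPL36A with 161 CPM, RPS28 with 199 CPM and RPL17 with 203 CPM. Other genes hold 90.5% of the 50-base coding stretches of RPL9 and 100% of those of RPL36A, RPS28 and RPL17. Their low levels are therefore uncertain.

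Near-identical copies limit how firmly reads can be placed. GENCODE 29 names 1133 pseudogenes after these genes, and 76 of the 77 have at least 1. In 40 of the 77, at least 50% of the 50-base stretches of the coding sequence occur in another annotated gene. Genes with a share of 100% included RPL17, RPL21, RPL36A, RPL39, RPL41, RPS26, RPS27, RPS28 and RPS3A, some of which have the widest ratios, so their values are uncertain. It was 51.9% for RPS20, 11.9% for RPS14, 2.07% for RPS19 and 0.338% for RPLP2. With those 40 genes left out, the other 37 had a median of -1.18 for PF against 2D with 24 called lower.

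The table listed 25 rows named as pseudogenes of a ribosomal protein gene and 3 read-through loci that start in one. RPL13AP5, a pseudogene of RPL13A, held 16624, 22309 and 21926 counts in PF, with 2% PEGDA and with 3% PEGDA, against 31682 in 2D. That was 71.6%, 64.4% and 68.4% of the counts of the pair in these EPCaTs, against 68.2% in 2D, so most counts went to the pseudogene row. RPSAP58 held 3649, 7858 and 5745 counts in the EPCaTs in that order, against 8748 in 2D, beside 5921, 7542 and 7746 for RPSA, against 12236 in 2D. The read-through RPL36A-HNRNPH2 held 615, 1878 and 1346 counts, against 1609 in 2D, more than RPL36A itself in each library.

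With such rows added to their gene, the log2 ratios for PF against 2D were -1.94 for RPL36A, -1.20 for RPL13A and -1.33 for RPSA. RPL36A was thus less extreme than in its own row, and all 3 were still called lower. For 2% PEGDA and 3% PEGDA against PF, RPL36A had 1.94 and 1.84 and was still called higher. RPL13A had 0.68 and 0.76, below 2-fold in both gels, where its own row had 1.01 and 0.91.

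**Figure D5:**
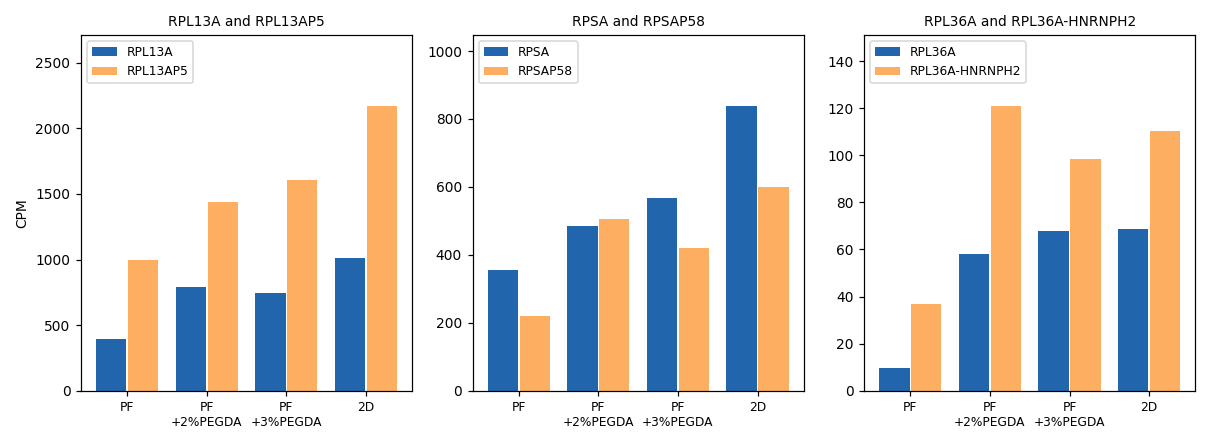
Level in CPM (y axis, from 0) of RPL13A, RPSA and RPL36A (blue) and of a pseudogene or read-through row that shares sequence with each (orange), in PF, with 2% PEGDA and with 3% PEGDA and the 2D coculture. RPL13AP5 exceeds RPL13A in all 4 libraries, at 996 CPM against 395 CPM in PF, and the PF EPCaT is lowest in all 6 rows.

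Genes that make ribosomal proteins or ribosome-bound proteins under other names were also lowest in PF. FAU, which encodes RPS30 fused to a ubiquitin-like protein, was at 60.7 CPM in the PF EPCaT, 253 CPM with 2% PEGDA and 174 CPM with 3% PEGDA, against 348 CPM in the 2D coculture. RACK1, a scaffold bound to the small subunit, was at 439.5 CPM in PF, 670.3 with 2% PEGDA and 673 with 3% PEGDA, against 1302 CPM in 2D. Both were called lower in PF against 2D, and FAU was also called lower in 3% PEGDA against 2D, by just over 2-fold.

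Paralogs of ribosomal proteins, some of which replace them in certain tissues, were mostly below 2D in PF as well. Of 8 paralogs, 6 were tested, with a median of -1.03 for PF against 2D, and 3 were called lower, against 12.3% of all genes. RPL26L1 was at 15.8 CPM in PF, 30.2 with 2% PEGDA and 27.2 with 3% PEGDA, against 52.4 CPM in 2D, a log2 ratio of -1.73 for PF, and RPL22L1 had -1.80, while RPL22 itself had -0.41. RPL36AL was at 169.5 CPM in PF, 193 with 2% PEGDA and 153 with 3% PEGDA, against 199 CPM in 2D, a log2 ratio of -0.23. RPL39L was at 10.8 CPM in PF, 16.02 with 2% PEGDA and 19.97 with 3% PEGDA, against 16.8 CPM in 2D, a log2 ratio of -0.63, and RPL7L1 had -0.39. RPL3L and RPL10L were below 1 CPM in all 4 libraries.

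Other mRNAs known to carry a TOP encode translation factors and related proteins. Their median log2 ratios were -0.91, -0.26 and -0.34 for PF, 2% PEGDA and 3% PEGDA against 2D over 19 genes. In that order 7, 0 and 1 were called lower, against 12.3%, 9.65% and 10.7% of all genes. FAU and RACK1 are among these 19. NAP1L1, a histone chaperone, had -1.04, -0.75 and -0.68 against 2D. HNRNPA1, a splicing regulator, ran the other way, with 1.11, 0.83 and 0.58, and was called higher in PF. Against PF, the list's medians were 0.57 in 2% PEGDA and 0.52 in 3% PEGDA. In each, 3 genes were called higher, against 2.98% and 3.62% of all genes.

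By its medians, the set of genes that build ribosomes had a different order of libraries. For 37 factors of large subunit assembly the median log2 ratios against 2D were -0.57, -0.71 and -0.82 in PF, 2% PEGDA and 3% PEGDA, with 8, 10 and 12 called lower and none higher. For 44 factors of small subunit assembly they were -0.66, -0.73 and -0.58, with 5, 9 and 12 called lower and none higher. Of all genes tested, 12.3%, 9.65% and 10.7% were called lower in these comparisons, so the 5 of 44 in PF are near that background. In the same order, 16.2%, 12.3% and 11.8% of all genes were called higher. Against PF, the PEGDA gels had medians of -0.09 and -0.28 for the first list and -0.13 and -0.12 for the second. By their medians, both lists were thus below 2D in each EPCaT. By the medians against PF, neither was higher in the PEGDA gels, where ribosomal protein genes had 0.96 and 0.93. Against 2D, however, the second list had -0.58 in 3% PEGDA and -0.66 in PF. Many of these factors have coding lengths of 1501 to 3000 nucleotides, where other tested genes had -0.08 and -0.09 against PF. The part of length in the medians of these lists was not tested. Single factors departed from these medians. NMD3, which exports the large subunit, had log2 ratios of 0.57, 0.66 and 0.77 against 2D in PF, 2% PEGDA and 3% PEGDA, and MDN1, a remodelling ATPase, had 0.46 in PF against 2D and was called lower in both PEGDA gels against PF, with -1.32 and -1.28. Both were chosen after their values were seen. RRS1, which in yeast helps to place the 5S particle, was at 42.3 CPM in the PF EPCaT, 32.4 CPM with 2% PEGDA and 30.7 CPM with 3% PEGDA, against 131 CPM in the 2D coculture. RRP12, which in yeast helps pre-ribosomes leave the nucleus, was at 32.2 CPM in PF, 29.2 with 2% PEGDA and 27.8 with 3% PEGDA, against 107 CPM in 2D.

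Subunits and factors of RNA polymerase I had medians of -0.35, -0.48 and -0.51 against 2D over 15 genes. Of these, 4, 2 and 1 were called lower, against 12.3%, 9.65% and 10.7% of all genes, so the last pair are near that background. In PF 1 of the 15 was called higher, against 16.2% of all genes. It was TAF1C, a subunit of the selectivity factor of the polymerase, with a log2 ratio of 1.58, chosen after its values were seen. POLR1G, a subunit of the polymerase, was at 10.01 CPM in PF, 6.43 with 2% PEGDA and 7.31 with 3% PEGDA, against 28.1 CPM in 2D. Nucleolar and snoRNP proteins, some of which modify ribosomal RNA, had -0.64, -0.61 and -0.81 over 15 genes. Of these, 6, 2 and 5 were called lower, against 12.3%, 9.65% and 10.7% of all genes, so the 2 are near that background. DKC1, the pseudouridine synthase, was at 66.8 CPM in PF, 55.1 with 2% PEGDA and 43.3 with 3% PEGDA, against 134 CPM in 2D. Both lists were below 2D in each EPCaT by their medians.

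Hosts of small nucleolar RNAs, many of them TOP transcripts that encode no protein, had low medians as well. Over 16 genes these were -1.21, -0.94 and -0.90 in PF, 2% PEGDA and 3% PEGDA against 2D. In that order 8, 8 and 7 were called lower, against 12.3%, 9.65% and 10.7% of all genes. GAS5 was at 1.62 CPM in the PF EPCaT, 6.43 CPM with 2% PEGDA and 3.80 CPM with 3% PEGDA, against 18.6 CPM in the 2D coculture. ZFAS1 was at 34.2 CPM in PF, 84.1 with 2% PEGDA and 75.5 with 3% PEGDA, against 243 CPM in 2D. Against PF, the PEGDA gels had medians of 0.73 and 0.66, with 5 and 4 genes called higher and 1 called lower in each. Among all genes, 2.98% and 3.62% were called higher and 5.47% and 7.49% lower.

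Cell type markers also moved between EPCaTs and 2D. The 15 fibroblast markers, all tested, had a summed level of 1391 CPM in PF, 1400.5 CPM in 2% PEGDA and 1084 CPM in 3% PEGDA, against 4508 CPM in 2D. Of them, 13, 11 and 11 were called lower in the EPCaTs in that order, against 12.3%, 9.65% and 10.7% of all genes. In PF, 1 was called higher, against 16.2% of all genes, and POSTN was at 0 in both PEGDA gels. The 14 epithelial markers summed to 6061, 6854 and 6411 CPM in the same EPCaTs, against 4372 CPM in 2D, and none was at 0. Against PF, the median of the fibroblast list was -0.01 in 2% PEGDA and -0.32 in 3% PEGDA, and that of the epithelial list 0.01 and -0.08, beside 0.96 and 0.93 for ribosomal protein genes. The part of cell makeup in the ribosomal protein ratios against 2D was not tested.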

How the data were processed

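Libraries were made with an unstranded TruSeq v2 kit from column-purified RNA, per the labels, and the deposited values are expected counts, the authors' estimated counts per gene before any scaling. Per the submitters' processing notes, FastQC, STAR and Partek were used with hg38, with no versions there, and the annotation and counting method are not given in the sources used here. Between 18.2% and 19.9% of values per library were not whole at a tolerance of 0.01, and values were rounded.

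Libraries were scaled with edgeR 4.0.16 (R 4.3.3). Log2 ratios used a prior count of 0.5 and exact Clopper-Pearson 95% intervals, and genes with at least 1 CPM in some library were tested. Calls need 2-fold, or 1.5-fold where stated, with an interval that excludes 0. Other steps used Python 3.11.15, numpy 2.4.6, scipy 1.17.1, pandas 2.3.3, statsmodels 0.14.6 and matplotlib 3.10.9, and calls were tested on simulated data.

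GENCODE 29 gave lengths and 50-mers, from the shortest APPRIS principal transcript of a gene. That choice, and levels per kilobase of coding sequence, were made after annotated lengths were seen. Of the 77 genes, 76 lie on the same chromosome in the table and in GENCODE, and RPL21 is listed on another.

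Members, lists and structural groups were chosen with earlier results of these data known. Named members, which needed 5 CPM in either library, are the 6 highest and 6 lowest ratios over the mean of the EPCaTs against 2D and over the pair 3% PEGDA and PF, the 3 highest and 3 lowest for other pairs, up to 10 called genes a direction, the 5 most and 5 least abundant per length, and a fixed set. Up to 4 genes come from each other list, and members that stand for a structural group were named outside this rule with values known.

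Other settings tried were size factors from DESeq2 1.42.0, total counts, scaling without the members, a prior count of 2, no filter, a 4-fold rule, other denominators, FAU as a member, members with copies left out or copies added, and removal of the trend with transcript or coding length and GC. Adding copies or FAU and the coding length trend were chosen after seeing the data. Some genes, and a planned setting that needs one, are not reported here, though medians and counts over the 77 genes and the lists include them.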

Additional observations from a re-analysis of the deposited data

Results flagged for a closer look

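RPL39 lay on opposite sides of the 2D coculture by more than 1.5-fold, with a log2 ratio of -1.87 in the PF EPCaT, 0.86 in the tissue with 2% PEGDA and 0.75 in that with 3% PEGDA. That difference was not tested, since each gel had 1 library, and all of the 50-base stretches of the RPL39 coding sequence occur in other genes. No other ribosomal protein gene passed 1.5-fold in both directions.

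Signal also stood in rows outside the 77 genes. RPL13AP5 was at 996 CPM in the PF EPCaT, and RPSAP58 was at 219 CPM there, far above the value of 3 counts. Whether these reads came from the pseudogenes or from RPL13A and RPSA was not tested.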

How the results depend on the processing

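No paired analysis was possible because each group had 1 library and the labels give no replicate numbers. DESeq2 size factors, scaling without the members, a prior count of 2 and no filter kept each median and count within its limits, and no median changed direction under any alternative. Scaling by total counts moves the median of all genes by 0.19 for PF and 0.11 for 2% PEGDA against 2D. With it, the medians of ribosomal protein genes were -1.09, -0.16 and -0.22 for PF, 2% PEGDA and 3% PEGDA against 2D and 0.89 and 0.83 for the PEGDA gels against PF, and 5 and 8 genes were lower past 1.5-fold in 2% PEGDA and 3% PEGDA against 2D.

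With the trend of transcript length and GC removed, the medians in the same order were -0.94, -0.20, -0.21, 0.73 and 0.70, with 35 genes lower past 2-fold in PF against 2D, 6 and 10 lower past 1.5-fold in the PEGDA gels against 2D, and 21 and 18 higher past 2-fold against PF. With coding length in its place they were -0.96, -0.22, -0.24, 0.74 and 0.64, with 6 and 11 lower past 1.5-fold and 1 higher in 3% PEGDA against 2D, and 17 and 15 higher past 2-fold against PF, where 41 passed 1.5-fold in 3% PEGDA. For the counts under the alternative settings of this section, shares of all genes are not given here.

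Leaving out members with copies keeps 37 genes, so its counts fall by construction: the medians were -1.18 for PF and -0.22 for 2% PEGDA against 2D, 24 and 36 genes were lower in PF past 2-fold and 1.5-fold, 0 were higher in 2% PEGDA past 2-fold, 0 past 1.5-fold in either PEGDA gel, and 3 and 8 lower. Against PF, 15 and 14 were higher past 2-fold and 33 and 29 past 1.5-fold, and the shares of counts were 1.27%, 2.29% and 2.15% in the EPCaTs, against 2.47% in 2D. With FAU added, 1 gene, FAU itself, was lower past 2-fold in 3% PEGDA against 2D, and the shares were 2.20%, 4.09% and 3.86%, against 4.45% in 2D. Without the 20 most abundant other genes in the denominator they were 2.33%, 4.31% and 4.10%, against 4.73%. Past 4-fold, 3 genes were lower in PF against 2D, 0 higher in 2% PEGDA against 2D, and 4 and 3 higher in the PEGDA gels against PF.

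Of 312 log2 ratios of named genes, 220 to 233 moved beyond their counting interval with total counts or a trend removed and 21 with copies added. No called ratio changed direction, while 46 values of ratios with a size of at most 0.46 changed sign. Depth limits little here, since the lowest count was 161. The lack of replicate libraries limits every comparison, and tissue, RNA and library differences cannot be told apart.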

Other observations

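In PF against 2D, lists on the handling of ribosomes outside the nucleolus lay closer to the level of all genes than ribosomal protein genes did. For 19 chaperones and importins of ribosomal proteins, the median log2 ratios against 2D were -0.20 in PF, -0.31 in 2% PEGDA and -0.42 in 3% PEGDA. In the PEGDA gels they were thus no closer than ribosomal protein genes, with -0.28 and -0.31. IPO5, an importin that carries ribosomal proteins, was at 123 CPM in the PF EPCaT, 136 CPM with 2% PEGDA and 125 CPM with 3% PEGDA, against 296 CPM in the 2D coculture, while IPO8, another importin, was at 67.1 CPM in PF, 59.8 with 2% PEGDA and 68.8 with 3% PEGDA, against 30.3 CPM in 2D. For 15 genes of ribosome rescue and quality control the medians were 0.14, -0.07 and -0.07. ZNF598, the ligase that marks collided ribosomes, was at 67.01 CPM in PF, 56.9 with 2% PEGDA and 47.5 with 3% PEGDA, against 142 CPM in 2D. GCN1, a sensor of collided ribosomes, was at 549 CPM in PF, 333 with 2% PEGDA and 339 with 3% PEGDA, against 256.3 CPM in 2D.

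For 21 genes of mTORC1 and of the control of TOP mRNAs the medians against 2D were -0.08, 0.12 and 0.07 in PF, 2% PEGDA and 3% PEGDA. EIF4EBP2, a repressor of cap-dependent translation, was at 324 CPM in the PF EPCaT, 359 CPM with 2% PEGDA and 408 CPM with 3% PEGDA, against 141 CPM in the 2D coculture. EIF4EBP1, its relative, was at 82.4 CPM in PF, 114 with 2% PEGDA and 93.7 with 3% PEGDA, against 202 CPM in 2D, so it was below 2D in each EPCaT where EIF4EBP2 was above it. DDIT4, an inhibitor of mTORC1 induced by stress, was at 118 CPM in PF, 192 with 2% PEGDA and 173 with 3% PEGDA, against 73.3 CPM in 2D, and SESN2, another, was at 22.9 CPM in PF, 28.96 with 2% PEGDA and 36.9 with 3% PEGDA, against 88.5 CPM in 2D. Of 10 endothelial and blood markers, 5 were tested and 4 were called higher in each EPCaT against 2D. The other was called lower in PF and in 2% PEGDA. Among all genes tested, 16.2%, 12.3% and 11.8% were called higher in PF, 2% PEGDA and 3% PEGDA. The 7 markers in the table summed to 311, 360.5 and 425 CPM in these EPCaTs, against 158 CPM in 2D. HBA1 was at 0 in the PEGDA gels and in 2D, and VWF was at 0 in 2D. The 13 mitochondrially encoded genes were not analysed here.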
